A study of Rattus norvegicus with 3 samples.

Results

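The 5 rat genes described here encode the subunits of the interferon receptors together with the Il10rb chain: Ifnar1 (ENSRNOG00000028594), Ifnar2 (ENSRNOG00000045668), Ifngr1 (ENSRNOG00000012074), Ifngr2 (ENSRNOG00000002032) and Il10rb (ENSRNOG00000028638). They were taken by name from the 30560 features of the deposited matrices, and each name matched 1 feature. Their raw UMIs (unique molecular identifiers, each standing for 1 captured RNA molecule) were summed over all barcodes of a library and over nuclei gated into cell classes by marker genes. The data are single-nucleus RNA sequencing libraries of brain from wild-type Crl:CD(SD) females aged 12 weeks. The LPS library came from rats given lipopolysaccharide at 5 mg/kg, the poly(I:C) library from rats given polyinosinic:polycytidylic acid at 12 mg/kg, and the Saline library from sham controls. All injections were intraperitoneal and preceded collection by 7 h. Nuclei of 4 rats were pooled in each library without a map back to animals, so there was 1 library per treatment. Differences between libraries were therefore not tested, and the intervals given are exact 95% intervals that cover counting error only.

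Type I interferons bind a heterodimer of Ifnar1 and Ifnar2, and interferon gamma binds a complex of Ifngr1, which holds the ligand, and Ifngr2, which is needed for signalling. Both receptors signal through Janus kinases to STAT transcription factors, which turn on interferon-stimulated genes, and in the brain the endothelium and microglia are well known to respond to circulating interferons. Il10rb is a shared chain that pairs with ligand-specific partners in the receptors for interleukin-10, interleukin-22 and interferon lambda. Bacterial lipopolysaccharide acts through Toll-like receptor Tlr4, and poly(I:C), a mimic of viral double-stranded RNA, acts through Tlr3 and cytosolic sensors. Both are known to induce interferons.

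In the RefSeq annotation of the GRCr8 assembly 4 of the 5 genes were direct neighbours on chromosome 11, in the order Ifnar2, Il10rb, Ifnar1 and Ifngr2, between Olig1 and Tmem50b. Ifngr1 stood apart on chromosome 1, between Olig3 and Il22ra2. All 5 genes matched the RefSeq table of promoters, which gives 300 bases from 250 before to 50 after each start. These are the promoters of the 3 chains whose levels differed most between libraries, all on the plus strand of GRCr8 and written in lower case. Capitals mark every match, on either strand, to 4 letter patterns: the interferon-stimulated response element GAAANNGAAA, the interferon gamma activation site TTCNNNGAA, the Ets motif CCGGAAGT and the GC box GGGCGG.
Ifnar1, chr11:44211519-44211818: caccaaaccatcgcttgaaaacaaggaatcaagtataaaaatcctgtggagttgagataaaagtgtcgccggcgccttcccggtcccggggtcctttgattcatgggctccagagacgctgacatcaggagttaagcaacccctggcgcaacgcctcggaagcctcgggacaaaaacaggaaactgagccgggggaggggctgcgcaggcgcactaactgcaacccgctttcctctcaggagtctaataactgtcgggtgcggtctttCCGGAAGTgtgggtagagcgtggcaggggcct
Ifngr1, chr1:16152660-16152959: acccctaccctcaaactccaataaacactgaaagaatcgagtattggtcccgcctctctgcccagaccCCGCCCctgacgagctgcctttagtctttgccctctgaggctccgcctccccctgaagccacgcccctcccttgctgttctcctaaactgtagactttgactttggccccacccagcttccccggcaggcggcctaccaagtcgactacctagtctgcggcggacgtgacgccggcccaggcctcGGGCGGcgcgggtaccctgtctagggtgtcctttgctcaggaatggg
Ifngr2, chr11:44265453-44265752: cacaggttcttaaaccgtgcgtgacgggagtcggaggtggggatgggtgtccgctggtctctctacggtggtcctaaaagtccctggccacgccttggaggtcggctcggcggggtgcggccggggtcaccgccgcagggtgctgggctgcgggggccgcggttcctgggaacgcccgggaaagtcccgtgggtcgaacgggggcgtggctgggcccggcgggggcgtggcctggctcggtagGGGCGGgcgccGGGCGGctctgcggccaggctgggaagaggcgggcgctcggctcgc

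The Ifnar1 window held 1 Ets motif just past the start, which 3.81% of all 33469 promoters in the table also hold. Ifngr1 and Ifngr2 held 2 GC boxes each, a motif present in 33.1% of promoters, and neither overlapped another motif searched. None of the 5 windows held the letters GAAANNGAAA, which 3.92% of promoters hold. TTCNNNGAA was found once each in the Ifnar2 and Il10rb windows, against 8.87% of promoters. The Ifngr2 window was 74.3% G and C, above 96.3% of promoters, while Ifnar1 was at 56.7% and Ifngr1 at 62.0%, with a median of 51.7% over the table. These matches describe letters and not bound sites.

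The LPS, poly(I:C) and Saline libraries held 11211, 15001 and 25435 barcodes with 29763787, 21340578 and 35532360 UMIs. The median nucleus had 2436 UMIs in the LPS library, 1264 in the poly(I:C) library and 1165 in the Saline library, so the LPS nuclei were the deepest. A nucleus entered a class with at least 3 UMIs from at least 2 of that class's markers or of the pan-neuronal ones, and 94.9%, 93.9% and 92.9% of barcodes in the LPS, poly(I:C) and Saline libraries did. Neurons made up 76.6% of the LPS barcodes, 87.9% of the poly(I:C) barcodes and 86.2% of the Saline barcodes. Barcode sequences shared between libraries numbered 247 for LPS and poly(I:C), 420 for LPS and Saline, and 550 for poly(I:C) and Saline. Nuclei of the non-neuronal classes often carried neuronal RNA, and no doublet caller was run.

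Summed over all barcodes, 3 of the 4 chains with enough UMIs (Ifnar1, Ifnar2 and Ifngr1) had lower levels in both treated libraries than in the Saline library, by amounts under 2-fold. Levels are given as CPM, the UMIs of a gene scaled to a library total of 1e6 UMIs. Ifnar1 had 1293 UMIs or 43.4 CPM in the LPS library and 854 UMIs or 40.0 CPM in the poly(I:C) library, against 1948 UMIs or 54.8 CPM in the Saline library. Its ratio to Saline was 0.792 (0.738 to 0.851) after LPS and 0.730 (0.673 to 0.792) after poly(I:C). Both treated libraries were thus below the Saline library beyond counting error. Because these are sums over a whole brain library, fewer nuclei of a type and less RNA per nucleus cannot be told apart in them.

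Ifnar2, the chain that binds type I interferon most tightly, had 32.2 CPM in the LPS library, 30.1 CPM in the poly(I:C) library and 34.1 CPM in the Saline library. The LPS ratio of 0.944 (0.866 to 1.03) included 1, while the poly(I:C) ratio was 0.883 (0.801 to 0.972). Ifngr1, the ligand-binding chain of the interferon gamma receptor, had 629, 377 and 926 UMIs, or 21.1, 17.7 and 26.1 CPM, in the LPS, poly(I:C) and Saline libraries. It was lower in both treated libraries, at 0.811 (0.732 to 0.898) of Saline after LPS and 0.678 (0.60 to 0.765) after poly(I:C). Ifngr2, its signalling partner, had 275, 150 and 282 UMIs, or 9.24, 7.03 and 7.94 CPM, in the same order. Neither Ifngr2 ratio to Saline excluded 1, at 1.16 (0.982 to 1.38) after LPS and 0.886 (0.722 to 1.08) after poly(I:C). Il10rb was barely detected, with 2 UMIs in the LPS library, 0 in the poly(I:C) library and 1 in the Saline library.

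None of the 4 chains with at least 20 UMIs passed 2-fold in either direction in any of the 3 comparisons over all barcodes. Among all genes with at least 20 UMIs, LPS over Saline put 2.5% past 2-fold on the higher side and 1.74% on the lower side. The matching shares were 2.24% and 2.9% for poly(I:C) over Saline, and 2.61% and 1.45% for LPS over poly(I:C). The median ratio of the 4 chains was 0.877 after LPS and 0.806 after poly(I:C), beside 0.979 and 0.941 over all genes. Of all genes tested, 11% had a lower LPS ratio than Ifnar1, and 9.15% had a lower poly(I:C) ratio than Ifngr1. Between the treated libraries, Ifngr1 at 1.2 (1.05 to 1.36) and Ifngr2 at 1.31 (1.07 to 1.62) were higher in LPS than in poly(I:C). The intervals of the same comparison included 1 for Ifnar1, at 1.09 (0.995 to 1.19), and for Ifnar2, at 1.07 (0.967 to 1.18).

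**Figure D1:**
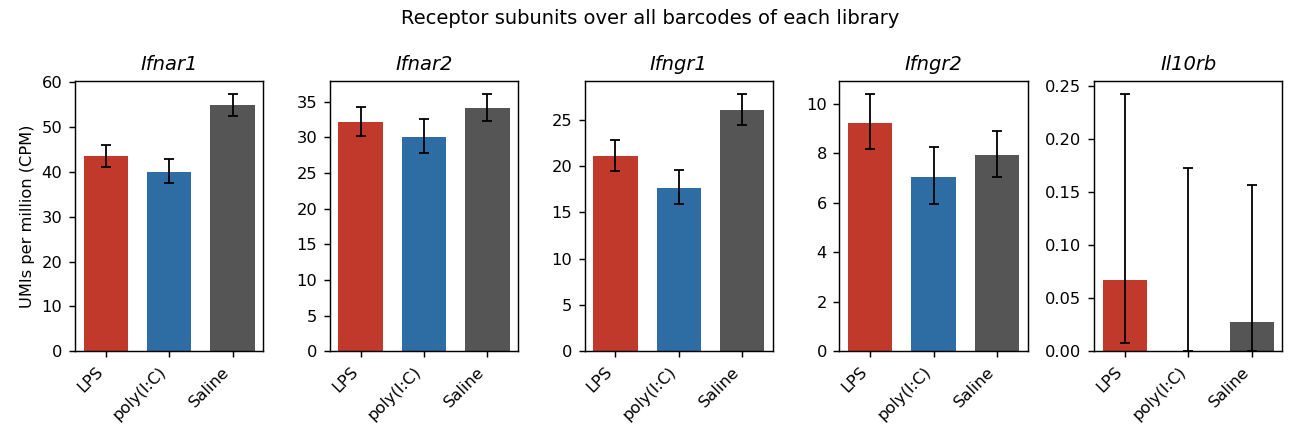
Level of each receptor chain over all barcodes, in CPM (vertical axis), for the LPS, poly(I:C) and Saline libraries. Bars are single libraries and error lines are exact 95% Poisson intervals for counting error. Ifnar1 stands at 43.4, 40.0 and 54.8 and Ifngr1 at 21.1, 17.7 and 26.1, with both treated libraries below Saline, and Il10rb is at the base line.

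In the Saline library, Ifnar1 was highest in vessel nuclei among the 12 classes with at least 50 nuclei, to which the baseline orders here are limited. Below that limit, 26 choroid plexus nuclei had 4 Ifnar1 UMIs or 119 CPM (32.4 to 305), and 6 fibroblast nuclei had 0 UMIs. Endothelial nuclei, gated by markers such as Pecam1, Cdh5 and Tie1, had 257 Ifnar1 UMIs in 354 nuclei, or 597 CPM (527 to 675). Mural nuclei, gated by pericyte and smooth muscle markers such as Pdgfrb and Rgs5, had 104 UMIs in 188 nuclei, or 462 CPM (377 to 559). The intervals of these neighbours in the order overlapped, which does not show equal levels, and microglia or macrophages followed at 97.0 CPM (41.9 to 191). The remaining classes of the 12 lay between 11.7 CPM in oligodendrocyte precursors and 47.7 CPM in unresolved neurons, each overlapping the next in the order. The endothelial level was 13.6 (11.9 to 15.5) times that of all neurons, which had 44.0 CPM. Endothelial nuclei were 1.39% of Saline barcodes and held 13.2% of the library's Ifnar1 UMIs.

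The other chains were less uneven at baseline. Saline endothelial nuclei were also first for Ifnar2, with 97 UMIs or 225 CPM (183 to 275), ahead of mural nuclei at 142 CPM (97.1 to 201), whose interval overlapped. Ifngr1 was shared at the top by endothelial nuclei at 158 CPM, microglia or macrophages at 146 CPM and mural nuclei at 142 CPM, which did not differ beyond counting error. Saline astrocytes were last for Ifngr1, with 1 UMI in 127 nuclei. Ifngr2 was sparse everywhere in the Saline library, and all 12 classes overlapped their neighbours, between 0 UMIs in astrocytes and 13.3 CPM in mural nuclei. Among neurons the Saline level of Ifngr1 was 28.0 CPM in inhibitory, 22.6 CPM in striatal projection and 22.0 CPM in excitatory neurons, with overlapping intervals.

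**Figure D2:**
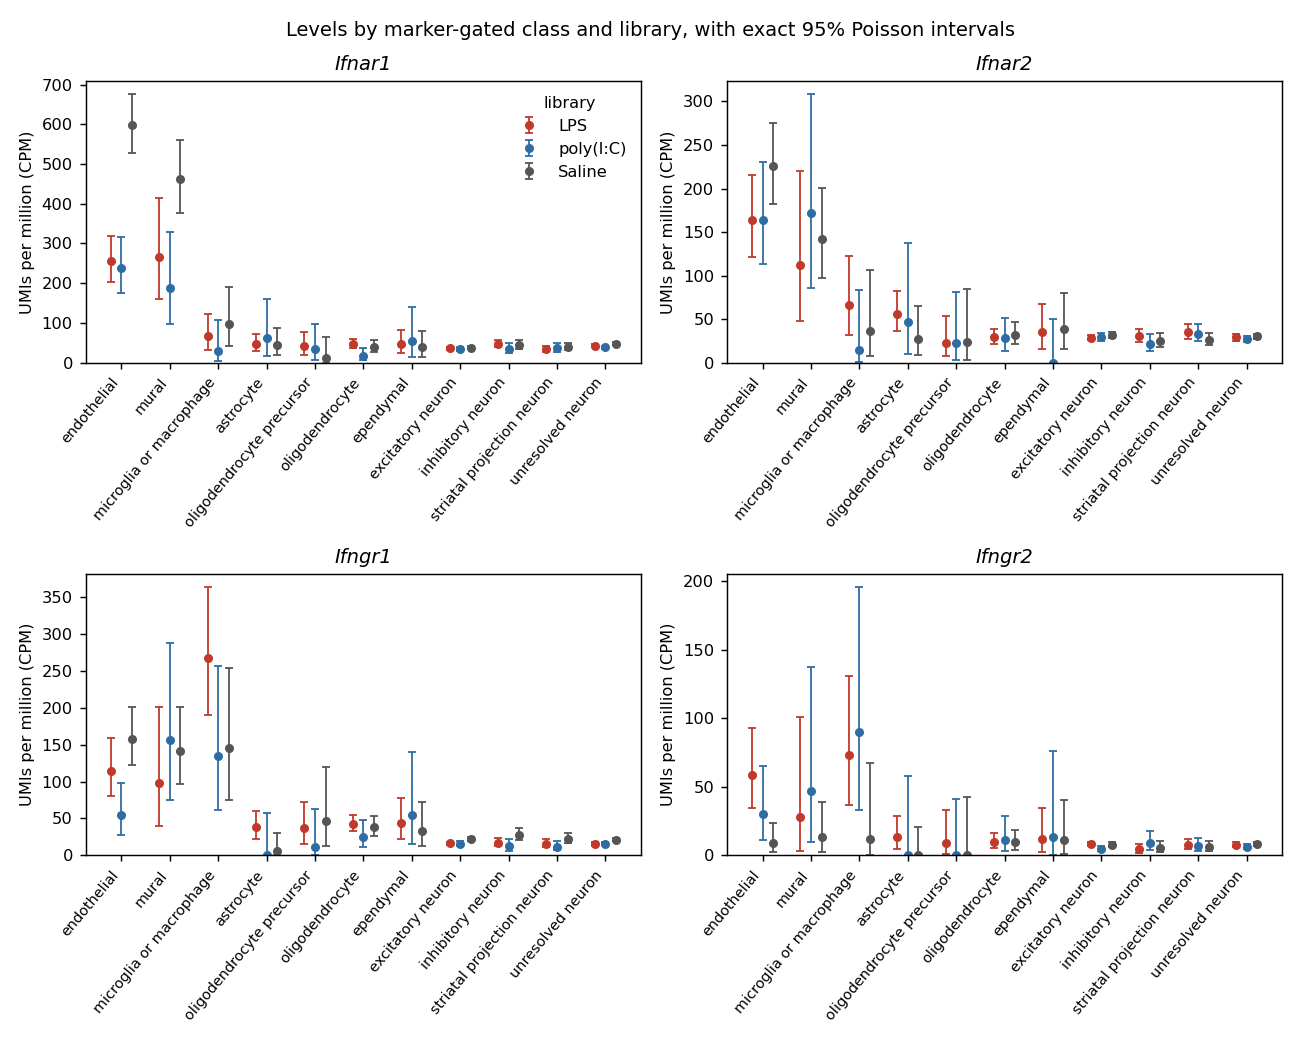
Level of Ifnar1, Ifnar2, Ifngr1 and Ifngr2 in CPM of the class (linear vertical axis) by marker-gated class, for the LPS, poly(I:C) and Saline libraries. Points are single libraries with exact 95% Poisson intervals. Ifnar1 in endothelial nuclei lies at 256, 239 and 597, while in inhibitory neurons it lies at 47.9, 35.5 and 44.6.

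Ifnar1 in endothelial nuclei was lower in both treated libraries than in the Saline library. The LPS library had 78 Ifnar1 UMIs in 182 endothelial nuclei, or 256 CPM (202 to 319). In the poly(I:C) library 196 endothelial nuclei held 48 UMIs, or 239 CPM (176 to 317), against the 257 UMIs and 597 CPM of the Saline library. Neither treated interval touched the Saline interval. The ratio was 0.428 (0.328 to 0.553) for LPS over Saline and 0.400 (0.288 to 0.547) for poly(I:C) over Saline, while LPS over poly(I:C) was 1.07 (0.736 to 1.56). Endothelial nuclei held 6.03% of all Ifnar1 UMIs in the LPS library and 5.62% in the poly(I:C) library, against 13.2% in the Saline library. Their share of nuclei was 1.62%, 1.31% and 1.39%. A share of UMIs also depends on the depth of the other nuclei. Of all UMIs, endothelial nuclei held 305342 of 29763787 in the LPS library, 200750 of 21340578 in the poly(I:C) library and 430271 of 35532360 in the Saline library. The endothelial level remained above that of neurons, at 6.55 times the neuronal level in the LPS library and 6.44 times in the poly(I:C) library.

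The endothelial Ifnar1 ratio was also taken within depth strata and after thinning. Median UMIs per endothelial nucleus were 1045 in the LPS library, 763 in the poly(I:C) library and 936 in the Saline library. Among endothelial nuclei under 1000 UMIs the Ifnar1 ratio was 0.376 (0.233 to 0.585) after LPS and 0.301 (0.188 to 0.464) after poly(I:C). Among those with at least 1000 UMIs it was 0.529 (0.377 to 0.732) after LPS and 0.457 (0.280 to 0.716) after poly(I:C). The intervals of the strata overlapped. Syt1 was seen in 29.4%, 29.0% and 31.9% of the shallower nuclei of the LPS, poly(I:C) and Saline libraries and in 48.5%, 80.0% and 75.3% of the deeper ones, and its part in the ratios was not tested. With every nucleus thinned to 1000 UMIs and shallower ones left out, the ratios were 0.730 (0.467 to 1.12) and 0.613 (0.345 to 1.04), and both intervals included 1. The share of endothelial nuclei with an Ifnar1 UMI was 33.5% in the LPS library, 20.4% in the poly(I:C) library and 46.1% in the Saline library, but 30.9%, 23.1% and 30.7% after thinning. In all neurons, at medians of 2744, 1331 and 1239 UMIs, those shares were 11%, 5.35% and 6.07%, and 4.0%, 3.63% and 4.32% after thinning.

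Ifnar1 also followed the strength of the endothelial signal in a nucleus. Nuclei with 6 or more endothelial marker UMIs had 279 CPM in the LPS library, 274 CPM in the poly(I:C) library and 691 CPM in the Saline library. With 3 to 5 marker UMIs the values were 148, 167 and 432 CPM, and with 1 marker UMI they were 38.3, 38.5 and 80.0 CPM, in the same order. Nuclei without any endothelial marker UMI had 40.4, 37.0 and 42.8 CPM. With 2 marker UMIs the values were 74.7, 96.5 and 177 CPM, and there the poly(I:C) and Saline intervals overlapped. Treated levels were thus below Saline at every step, by less at 0 marker UMIs. At 0 the poly(I:C) interval of 34.4 to 39.7 did not touch the Saline interval of 40.6 to 45.1, while the LPS interval did.

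Marker levels within the endothelial gate were set side by side across libraries. Summed over the 10 endothelial markers found, its nuclei had 5404 CPM in the LPS library, 5465 CPM in the poly(I:C) library and 5074 CPM in the Saline library, with no marker at 0. Nuclei entered the gate by these same markers, so the likeness of these sums cannot check it. Single markers differed more, since Tie1 was at 0.253 and 0.193 and Emcn at 0.309 and 0.396 of Saline after LPS and poly(I:C), while Cdh5 was at 2.70 and 5.78. Different endothelial nuclei in each gate and altered expression within them cannot be told apart here. The 9 mural markers summed to 1922, 1883 and 2071 CPM in these nuclei, with 0, 2 and 1 of them at 0. The 6 neutrophil markers summed to 609 CPM after LPS and 404 CPM after poly(I:C), against 2.32 CPM after Saline, with 1, 1 and 5 of them at 0. Syt1, a neuronal vesicle protein, was seen in 39.6%, 45.9% and 52.3% of the endothelial nuclei, and without those nuclei the LPS ratio of Ifnar1 was 0.465. The 1 erythroid marker found, Hba-a2, had 1618, 1360 and 2640 CPM, and the 7 T and NK cell markers summed to 0, 0 and 16.3 CPM, with 7, 7 and 2 of them at 0. The part of these other cell types in the Ifnar1 result, or in the results of the other chains in this gate, was not tested.

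Mural nuclei had the same direction on fewer counts. Ifnar1 had 19 UMIs or 266 CPM in 51 LPS mural nuclei and 12 UMIs or 188 CPM in 68 poly(I:C) mural nuclei, against 104 UMIs or 462 CPM in the Saline library. The ratios were 0.575 (0.333 to 0.944) after LPS and 0.407 (0.204 to 0.741) after poly(I:C), the second of which was 0.988 after thinning. Endothelial and mural nuclei together gave 257, 227 and 551 CPM in the LPS, poly(I:C) and Saline libraries. Those ratios were 0.467 (0.370 to 0.586) after LPS and 0.412 (0.308 to 0.542) after poly(I:C). After thinning they were 0.761 (0.505 to 1.13) and 0.702 (0.430 to 1.11), and both intervals included 1.

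Ifnar2 gave no ratio to Saline whose interval excluded 1 in endothelial nuclei. It had 50 UMIs or 164 CPM after LPS, 33 UMIs or 164 CPM after poly(I:C) and 97 UMIs or 225 CPM after Saline. The ratios were 0.726 (0.506 to 1.03) after LPS and 0.729 (0.476 to 1.09) after poly(I:C), and the LPS value was 1.18 after thinning. The Ifnar1 ratio after LPS lay outside the first interval, but its own interval overlapped that one, and its thinned value lay inside it. The difference between the partner chains was not tested.

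In the other glial and barrier classes the type I chains gave small counts. Oligodendrocytes had 71 Ifnar1 UMIs or 47.2 CPM in 988 LPS nuclei and 6 UMIs or 16.9 CPM in 299 poly(I:C) nuclei, against 34 UMIs or 40.5 CPM in 649 Saline nuclei. LPS over poly(I:C) was 2.80 (1.22 to 7.87), with a range of 2.02 to 7.71 over the alternatives and an interval that included 1 after thinning, at 0.588 to 10.7, and without nuclei of a second gate or with most UMIs, at 0.613 to 158. The ratios to Saline of 1.17 (0.765 to 1.81) after LPS and 0.417 (0.143 to 1.01) after poly(I:C) included 1. Astrocytes had 21, 4 and 8 Ifnar1 UMIs, or 46.8, 62.8 and 44.3 CPM, in the LPS, poly(I:C) and Saline libraries, and these did not differ beyond counting error. Microglia or macrophages had 10, 2 and 8 Ifnar1 UMIs, which were too few to order the libraries.

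**Figure D3:**
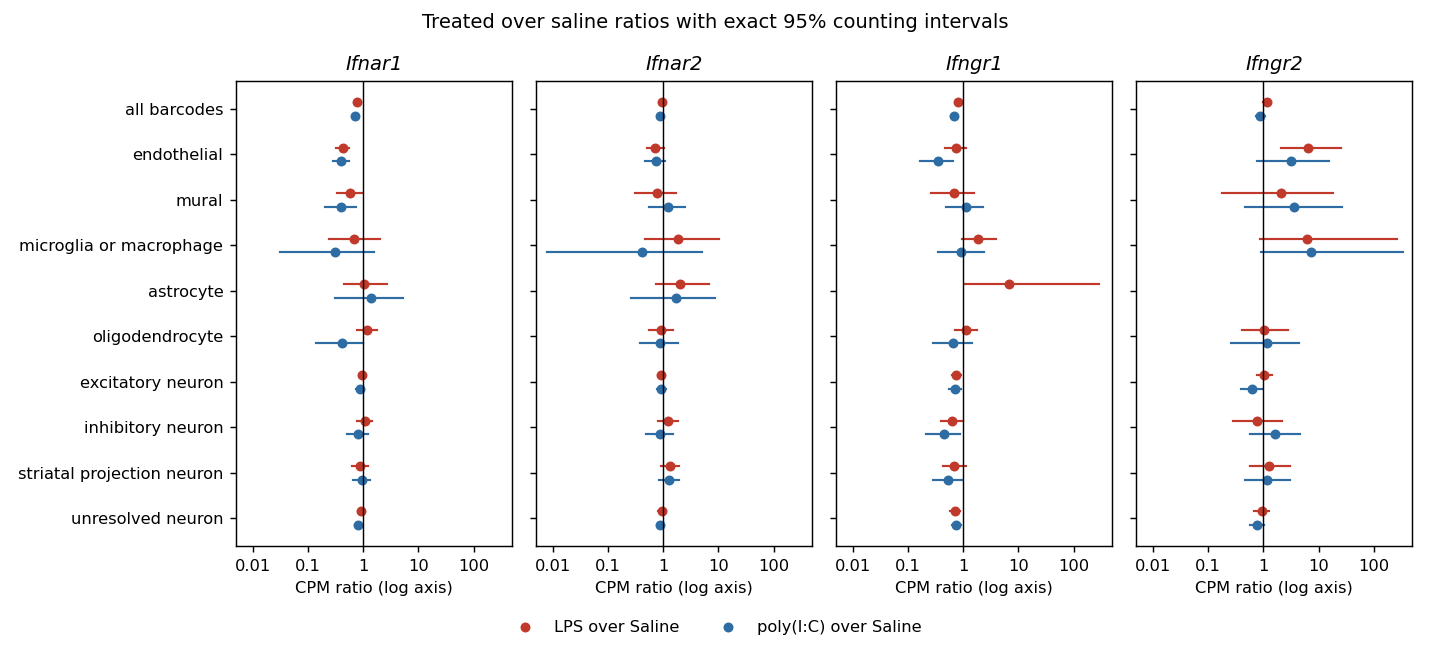
Ratio of CPM in LPS over Saline and in poly(I:C) over Saline (log axis) for 4 receptor chains, by cell class and over all barcodes, drawn where both libraries held a UMI. Lines are exact 95% intervals for counting error and the vertical line marks a ratio of 1. Endothelial Ifnar1 lies at 0.428 and 0.400, and Ifngr1 in excitatory neurons at 0.754 and 0.713.

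Ifngr1 was lower in neurons of both treated libraries, in each neuron class. All neurons together had 421 UMIs or 16.1 CPM in the LPS library and 305 UMIs or 15.5 CPM in the poly(I:C) library, against 709 UMIs or 22.1 CPM in the Saline library. The ratio was 0.731 (0.646 to 0.826) after LPS and 0.701 (0.611 to 0.803) after poly(I:C). Across the alternatives it ranged from 0.722 to 0.763 after LPS and from 0.684 to 0.737 after poly(I:C), thinning included. Within neurons of at least 1000 UMIs the LPS ratio was 0.720 (0.633 to 0.818), but in those under 1000 UMIs it was 2.21 (0.987 to 4.33), from 9 UMIs in 223 LPS nuclei and 125 UMIs in 7625 Saline nuclei. The poly(I:C) ratio was 0.684 (0.588 to 0.793) in the deeper neurons and 0.816 (0.570 to 1.15) in the shallower ones. Of all genes tested in neurons, 8.58% had a lower LPS ratio than Ifngr1 and 9.44% a lower poly(I:C) ratio. The median over all genes was 0.959 after LPS and 0.945 after poly(I:C).

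Excitatory neurons had 16.6 Ifngr1 CPM in the LPS library and 15.7 in the poly(I:C) library, against 22.0 in the Saline library, with ratios of 0.754 (0.625 to 0.911) and 0.713 (0.558 to 0.905). For inhibitory neurons the levels were 17.3, 12.5 and 28.0 CPM in the LPS, poly(I:C) and Saline libraries, with ratios of 0.616 (0.390 to 0.971) and 0.448 (0.215 to 0.862). Striatal projection neurons had 15.7, 11.9 and 22.6 CPM in the same order. Their LPS ratio of 0.694 (0.430 to 1.11) included 1, and their poly(I:C) ratio was 0.526 (0.283 to 0.935). Unresolved neurons, which carried neuronal markers without a clear type, stood at 0.701 (0.566 to 0.863) and 0.747 (0.621 to 0.894). Of the 8 intervals of the 4 neuron classes 7 excluded 1, all on the lower side, with the Saline library shared by both comparisons. The classes were split from the same libraries, so these are not separate observations. Genes with a lower LPS ratio made up 11.1%, 4.14%, 10.4% and 6.74% in excitatory, inhibitory, striatal projection and unresolved neurons. After poly(I:C) the shares were 12.2%, 2.01%, 4.64% and 12.6%. The share of all genes with intervals that excluded 1 is not given here.

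The other 3 chains moved less in neurons. Neuronal Ifnar1 was 39.0 CPM after LPS, 37.1 CPM after poly(I:C) and 44.0 CPM after Saline, at ratios of 0.887 (0.818 to 0.963) and 0.844 (0.771 to 0.924). By class its LPS ratio was 0.947 in excitatory, 1.07 in inhibitory, 0.871 in striatal projection and 0.903 in unresolved neurons. After poly(I:C) these were 0.894, 0.797, 0.943 and 0.820. Unresolved neurons were 29.3%, 55.0% and 57.3% of the LPS, poly(I:C) and Saline barcodes. The part of this mix of classes in the pooled ratios was not tested. Neuronal Ifnar2 was 29.5, 27.9 and 30.1 CPM in the same order, and both ratios included 1, at 0.981 (0.891 to 1.08) and 0.929 (0.835 to 1.03). Ifngr2 in neurons was 7.58, 6.03 and 7.75 CPM, with ratios of 0.979 (0.808 to 1.18) after LPS and 0.779 (0.621 to 0.973) after poly(I:C). In neurons none of the 4 chains passed 2-fold against Saline. Among all genes in neurons 0.89% passed 2-fold on the higher side and 1.88% on the lower side after LPS, with 1.62% and 2.33% after poly(I:C).

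Outside neurons Ifngr1 rested on fewer counts, and differences between classes in its ratios were not tested. Endothelial nuclei had 35 Ifngr1 UMIs or 115 CPM after LPS and 11 UMIs or 54.8 CPM after poly(I:C), against 68 UMIs or 158 CPM after Saline. The LPS ratio of 0.725 (0.468 to 1.11) included 1. The poly(I:C) ratio was 0.347 (0.165 to 0.660), and it ranged from 0.223 to 0.470 over the alternatives. LPS over poly(I:C) was 2.09 (1.04 to 4.57).

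Microglia or macrophages in the LPS library had the highest Ifngr1 level of any class in that library, at 40 UMIs in 74 nuclei or 267 CPM (191 to 363). The poly(I:C) library had 9 UMIs in 50 nuclei or 135 CPM, and the Saline library 12 UMIs in 54 nuclei or 146 CPM. The LPS ratio to Saline was 1.83 (0.943 to 3.84), and its interval included 1. Without nuclei that carried a Syt1 UMI, which were 64.9%, 56.0% and 83.3% of these nuclei in the LPS, poly(I:C) and Saline libraries, it was 0.674 (0.200 to 2.90). Their own markers, by which they were gated, summed to 2533, 3072 and 2509 CPM in that order, which cannot check the gate. Within the LPS library the Ifngr1 level was 16.6 (11.7 to 22.9) times that of neurons.

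Astrocytes had 17 Ifngr1 UMIs in 304 LPS nuclei, 0 UMIs in 59 poly(I:C) nuclei and 1 UMI in 127 Saline nuclei. The LPS ratio of 6.84 rested on the single Saline UMI, had an interval of 1.07 to 286 and was 2.30 (0.751 to 9.40) with a looser gate. With fewer than 20 UMIs over both libraries it was not counted against the background.

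Ifngr2 in nuclei of the endothelial gate had ratios to Saline above 1, while those of its partner Ifngr1 were below 1. The LPS interval of Ifngr1 and the poly(I:C) interval of Ifngr2 included 1. In neither treatment did both chains thus differ from Saline beyond counting error. Neutrophil markers in this gate were also higher in both treated libraries, as given above, and their part in the Ifngr2 level was not tested. Ifngr2 had 18 UMIs or 59.0 CPM (34.9 to 93.2) in the LPS library and 6 UMIs or 29.9 CPM (11 to 65.1) in the poly(I:C) library, against 4 UMIs or 9.30 CPM (2.53 to 23.8) in the Saline library. The LPS and Saline intervals did not overlap, and the poly(I:C) interval overlapped both. The LPS ratio was 6.34 (2.09 to 25.8), and 1.35% of genes tested in this class had a higher one. Ifngr2 reached the 20 UMIs asked of tested genes mainly through its 18 LPS UMIs, so this rank leans on the difference itself. Without nuclei that passed a second class's gate or had the most UMIs, the ratio was 1.73 (0.125 to 23.9), and after thinning it was 8.56 (0.958 to 405), so both of these intervals included 1. The poly(I:C) ratio of 3.22 (0.762 to 15.5) included 1. In endothelial and mural nuclei together Ifngr2 had 20, 9 and 7 UMIs, with an LPS ratio of 4.97 (2.02 to 13.9) and a poly(I:C) ratio of 3.19 (1.06 to 10.1).

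Counted over the endothelial gate, 4 chains had at least 20 UMIs over the LPS and Saline libraries. Of these, Ifngr2 passed 2-fold on the higher side, as did 7.25% of all genes tested, and Ifnar1 on the lower side, as did 7.63%. Ifngr2 was counted here mainly because of its UMIs in the LPS library, where it was high, so its place in this count is only a description. For poly(I:C) over Saline 3 chains had enough UMIs, and Ifnar1 and Ifngr1 were at least 2-fold lower. In that comparison 13.2% of all genes were as low and 8.7% were past 2-fold on the higher side. For LPS over poly(I:C) 1 of 4 chains, Ifngr1, was at least 2-fold higher, with 7.5% of all genes higher and 5.11% lower. A ratio below that of Ifnar1 was held by 4.74% of genes after LPS and 8.44% after poly(I:C).

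Ifngr2 was also higher after LPS in a set without a class name. Barcodes that passed no gate had 17 UMIs or 39.9 CPM in the LPS library and 10 UMIs or 16.7 CPM in the poly(I:C) library, against 15 UMIs or 12.4 CPM in the Saline library, with an LPS ratio of 3.22 (1.51 to 6.92). Microglia or macrophages had 11, 6 and 1 Ifngr2 UMIs, and their LPS ratio of 6.05 had an interval of 0.879 to 260. In excitatory neurons Ifngr2 was lower in the poly(I:C) library, at 8.07, 4.81 and 7.75 CPM in the LPS, poly(I:C) and Saline libraries. Its poly(I:C) ratio to Saline was 0.620 (0.396 to 0.95), and LPS over poly(I:C) was 1.68 (1.12 to 2.59).

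The balance of partner chains was set side by side in each library, with no test of its difference. A ratio of UMIs between 2 genes is not a ratio of molecules, because capture differs by gene, so only its change across libraries or classes is read. In endothelial nuclei there were 1.56 (1.08 to 2.27) Ifnar1 UMIs per Ifnar2 UMI in the LPS library and 1.46 (0.915 to 2.34) in the poly(I:C) library, against 2.65 (2.09 to 3.38) in the Saline library. The treated intervals overlapped the Saline one. Neurons had 1.32, 1.33 and 1.46 in the same order. For the interferon gamma receptor, endothelial nuclei had 1.94 (1.07 to 3.65) Ifngr1 UMIs per Ifngr2 UMI after LPS and 1.83 (0.622 to 6.04) after poly(I:C), against 17.0 (6.34 to 64.2) after Saline, and neither treated interval overlapped the Saline one. Neurons had 2.13, 2.56 and 2.85. The endothelial Ifngr2 counts behind these ratios were only 18, 6 and 4 UMIs in the LPS, poly(I:C) and Saline libraries. Limits given above for endothelial Ifngr2, from thinning, second-gate nuclei and neutrophil markers, hold for its balance too. By value the treated endothelial ratios were nearer the neuronal ones than the Saline ratio was, which is only a description. Both type I chains were seen together in 14 of 182 LPS, 8 of 196 poly(I:C) and 43 of 354 Saline endothelial nuclei, numbers that depend on depth per nucleus.

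Il10rb gave too few UMIs for any comparison. Its 2 UMIs in the LPS library lay in a microglia or macrophage nucleus and in a Drd2 striatal neuron, and the 1 UMI in the Saline library lay in an unresolved neuron. With 0 UMIs in the poly(I:C) library, 3 counts allow a level of up to 0.141 CPM there. Of its partner chains, Il10ra, which binds interleukin-10, had 52, 32 and 66 UMIs in the LPS, poly(I:C) and Saline libraries. Ifnlr1, the interferon lambda chain, had 197, 87 and 257 UMIs, or 6.62, 4.08 and 7.23 CPM. It was at 0.915 (0.756 to 1.11) of Saline after LPS and lower after poly(I:C), at 0.564 (0.437 to 0.721). Il22ra1, the interleukin-22 chain, had 1 UMI, in the LPS library.

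At baseline the lowest and highest neuron subtypes had overlapping intervals for Ifnar1 and for Ifnar2. Such overlap does not show equal levels, and it does not extend to every pair of subtypes or every chain. Saline Ifnar1 ranged from 20.8 CPM (8.98 to 41.0) in Rorb excitatory neurons to 56.8 CPM (33.7 to 89.8) in thalamic Slc17a6 neurons among subtypes with at least 50 nuclei in each library. Saline Ifnar2 in the same subtypes ranged from 19.2 CPM (9.58 to 34.4) in Vip or Adarb2 interneurons to 50.3 CPM (26.0 to 87.8) in Cux2 excitatory neurons. For Saline Ifngr2, layer 6 corticothalamic neurons had 4.57 CPM (2.71 to 7.22) and Slc17a6 neurons outside the thalamic group 21.2 CPM (7.77 to 46.1). Those intervals did not overlap, in a pair picked from many. Layer 6 corticothalamic neurons, the named subtype with the most Ifnar1 UMIs, had 38.7 CPM after LPS, 39.8 CPM after poly(I:C) and 38.1 CPM after Saline. Their Ifnar1 ratios of 1.02 (0.818 to 1.27) and 1.05 (0.798 to 1.37) were narrow and included 1. Ifnar2 in the same neurons was likewise level, at 30.6, 31.2 and 29.9 CPM.

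Few subtype ratios had intervals that excluded 1. In Drd2 striatal neurons Ifnar2 had 31 UMIs or 44.0 CPM after LPS and 13 UMIs or 28.7 CPM after poly(I:C), against 11 UMIs or 20.4 CPM after Saline, and the LPS ratio was 2.16 (1.06 to 4.77). The Il1rapl2 Tacr3 Etv1 excitatory neurons had 16.0 Ifngr1 CPM after LPS, 14.7 after poly(I:C) and 25.2 after Saline, with an LPS ratio of 0.635 (0.410 to 0.985). Remaining excitatory neurons had 28, 7 and 33 Ifngr2 UMIs, or 9.48, 3.31 and 10.5 CPM, and a poly(I:C) ratio of 0.316 (0.118 to 0.725). Their Ifnar1 was at 0.702 (0.506 to 0.964) of Saline after poly(I:C). These 4 were picked from many subtype ratios to Saline because their intervals excluded 1. Among that many intervals, some would exclude 1 by counting error alone. The 4 are therefore only a description, and alternatives were not run for them. No nucleus passed the Pvalb gate, and Sst interneurons numbered 22, 4 and 4.

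**Figure D4:**
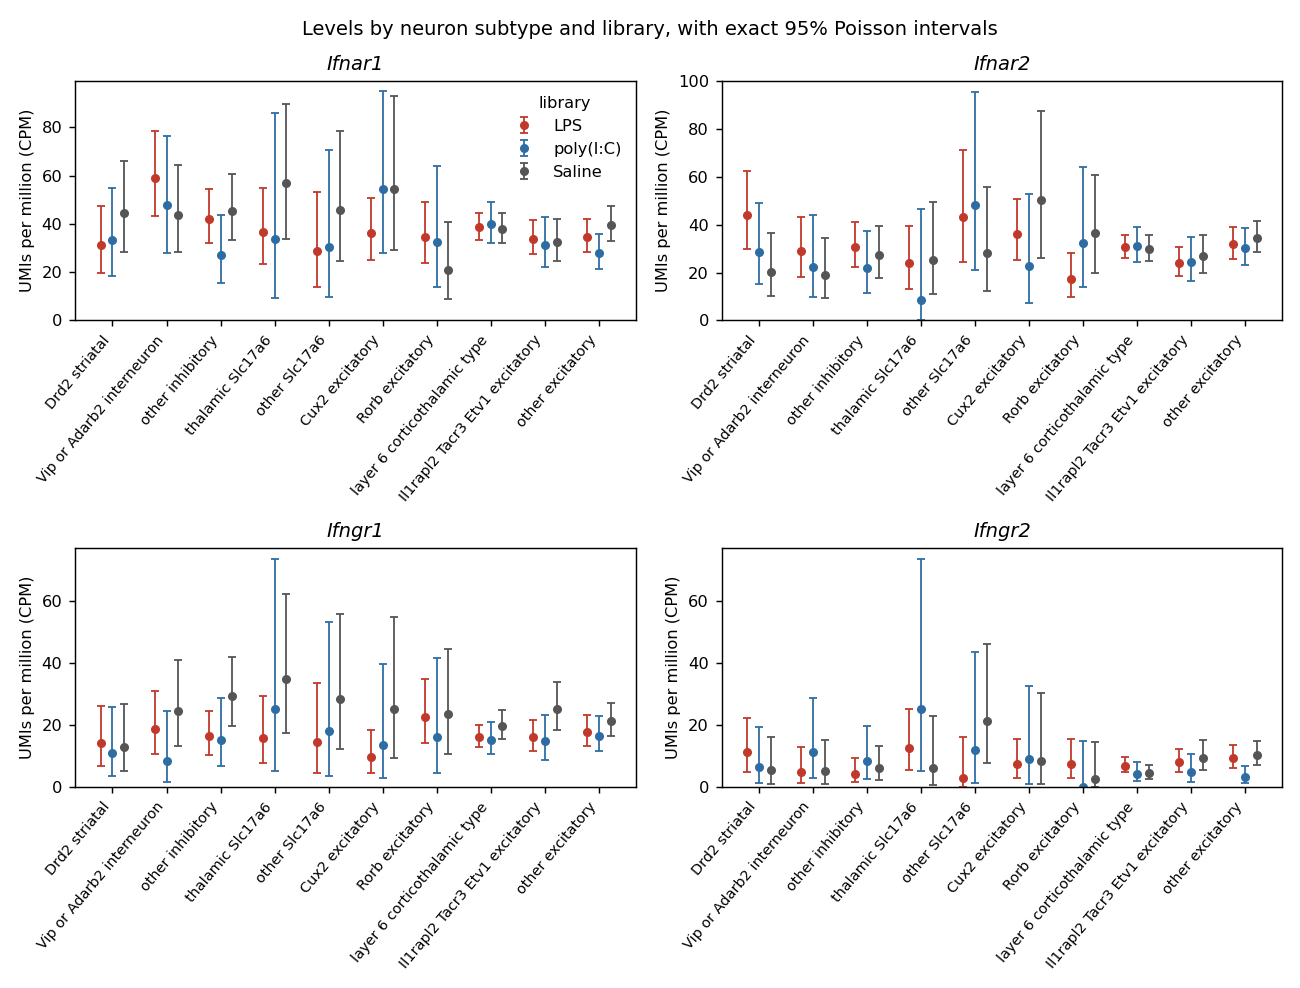
Level of 4 receptor chains in CPM of the subtype (vertical axis) in neuron subtypes of the LPS, poly(I:C) and Saline libraries, with exact 95% Poisson intervals. Ifnar1 in layer 6 corticothalamic neurons lies at 38.7, 39.8 and 38.1. Ifnar2 in Drd2 striatal neurons, a case picked from many subtype ratios, lies at 44.0, 28.7 and 20.4.

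The ligands themselves were nearly unseen at 7 h. Ifng, which encodes interferon gamma, had 0 UMIs in all 3 libraries. Ifnb1, which encodes interferon beta, had 4 UMIs in the LPS library, 2 in the poly(I:C) library and 2 in the Saline library, and Ifna4 had 3, 3 and 8. No ligand reached 20 UMIs over any pair of libraries.

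Downstream of the receptors, several inhibitors and all target genes had larger ratios over all barcodes than any chain did. The 3 kinases that bind the receptors, Jak1, Jak2 and Tyk2, lay between 0.886 and 1.09 of Saline after LPS and between 0.851 and 1.21 after poly(I:C) over all barcodes, and none passed 2-fold. In endothelial nuclei Jak1 was at 1.53 (1.12 to 2.10) of Saline after LPS and Jak2 at 2.23 (1.24 to 4.02) after poly(I:C), the reverse direction to Ifnar1. Tyk2 had 2, 4 and 14 UMIs there in the LPS, poly(I:C) and Saline libraries, at 0.201 (0.0222 to 0.877) of Saline after LPS. Stat2, which carries the type I signal, was at 1.29 (1.15 to 1.45) of Saline after LPS and 3.04 (2.74 to 3.38) after poly(I:C) over all barcodes. In endothelial nuclei Stat2 reached 4.54 (2.09 to 10.9) and 11.9 (5.80 to 27.5). Stat3 and Irf1 were also higher there, at 4.15 and 3.88 after LPS and 6.13 and 6.97 after poly(I:C).

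Of the 7 inhibitors 3 were at least 2-fold higher than Saline over all barcodes in each treated library, and none was 2-fold lower. Over all genes tested the shares were 2.5% higher and 1.74% lower after LPS, and 2.24% and 2.9% after poly(I:C). This list was chosen with earlier results known, so the count only describes it. Socs3, a feedback inhibitor of kinases, was at 12.0 (6.65 to 23.9) of Saline after LPS and 14.7 (8.08 to 29.4) after poly(I:C). Socs1, which blocks Janus kinases, was at 2.99 and 6.87. Usp18, which binds Ifnar2 and dampens type I signalling, had 160 UMIs after LPS and 1423 after poly(I:C), against 61 after Saline, at ratios of 3.13 (2.32 to 4.28) and 38.8 (30.1 to 51.1). In neurons Usp18 had 44, 932 and 28 UMIs in the LPS, poly(I:C) and Saline libraries. Usp18 thus separated LPS from poly(I:C), while the level of Ifnar2 did not.

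All 10 target genes were at least 2-fold higher than Saline over all barcodes in both treated libraries, with a median ratio of 9.35 after LPS and 68.5 after poly(I:C). Of all genes tested, 2.5% passed 2-fold on that side after LPS and 2.24% after poly(I:C). The 10 target genes were all at least 2-fold lower in LPS than in poly(I:C), at a median of 0.128, as were 1.45% of all genes. In endothelial nuclei the median was 29.1 over the 7 target genes with enough UMIs after LPS and 90.4 over all 10 after poly(I:C). Irf7, a factor that amplifies interferon production, had 153 and 212 endothelial UMIs after LPS and poly(I:C), against 7 after Saline. Cxcl10, a chemokine, had 146 and 1227 UMIs, against 0 after Saline, which makes it at least 68.6-fold higher after LPS and, for poly(I:C), at least 877-fold, by the floor of 3 counts over the class. In neurons 5 of 7 target genes with enough UMIs passed 2-fold after LPS and 10 of 10 after poly(I:C), with medians of 6.0 and 55.0. Among all genes in neurons 0.89% and 1.62% passed 2-fold on the higher side. Target genes with few Saline UMIs, such as endothelial Irf7 and Cxcl10, reached the 20 UMIs asked only through the treated library. Their list was also chosen with earlier results known, so these counts and medians lean to high ratios and only describe the list. Set side by side, LPS over poly(I:C) in endothelial nuclei was 1.07 (0.736 to 1.56) for Ifnar1 and 0.996 (0.629 to 1.60) for Ifnar2, beside a median of 0.15 over the target genes. In neurons it was 1.05 (0.955 to 1.16) for Ifnar1 and 1.06 (0.946 to 1.18) for Ifnar2, beside 0.0856 over the target genes.

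**Figure D5:**
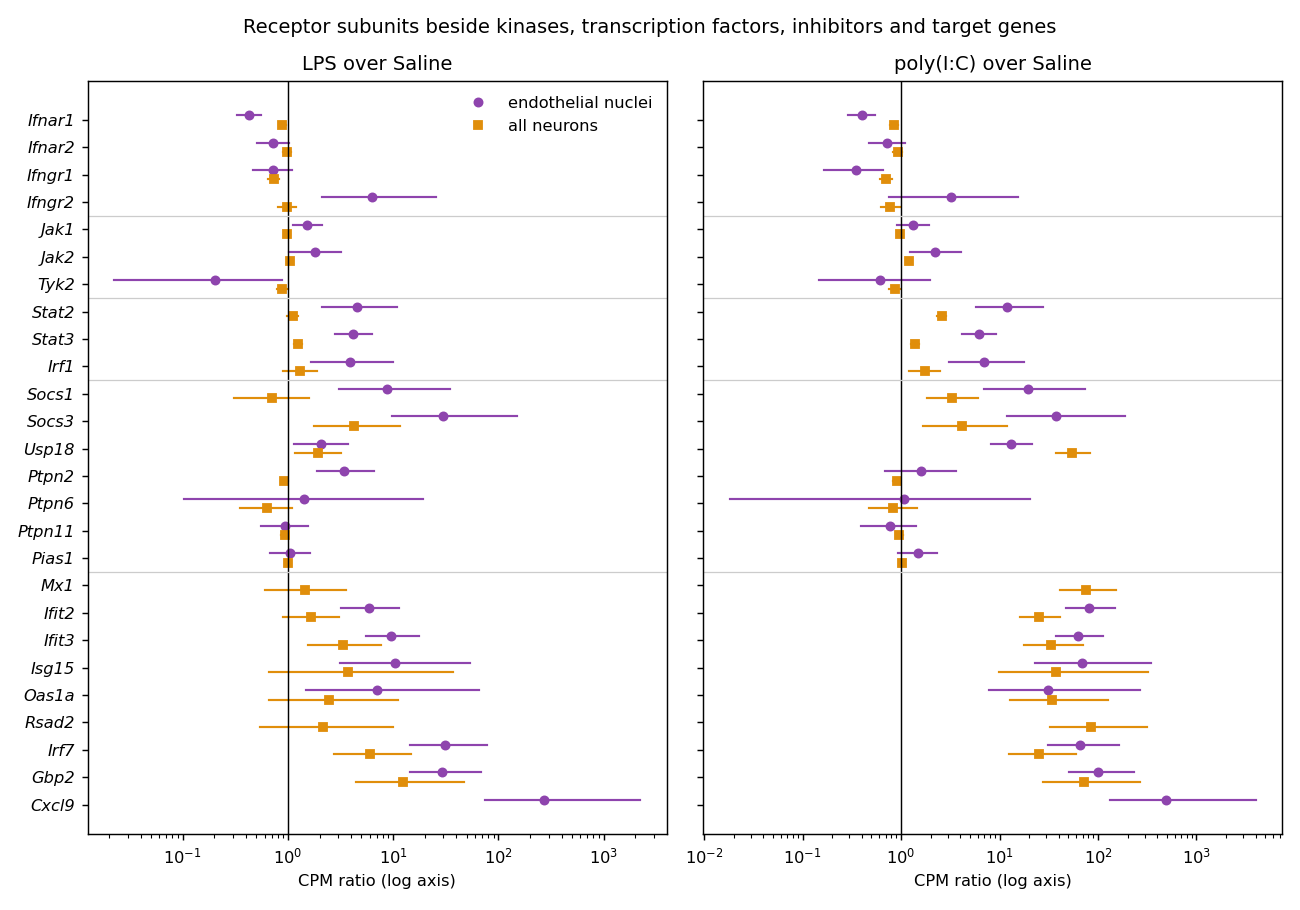
Ratio of CPM in LPS over Saline and poly(I:C) over Saline (log axis) for 4 receptor chains and for kinases, transcription factors, inhibitors and target genes, in endothelial nuclei and in all neurons, drawn where both libraries held a UMI. Lines are exact 95% intervals for counting error. Receptor chains stay near or below 1 apart from endothelial Ifngr2, while Irf7 in endothelial nuclei lies at 30.8 and 64.9.

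Likeness to other genes was measured by Pearson's r of log2(CPM + 10) over 36 points, 12 classes in each of 3 libraries, which share libraries and depth. Among 10401 genes Ifnar1 was most like Eef1a1, a translation elongation factor (r = 0.936), Bsg, a glycoprotein of the blood-brain barrier (r = 0.907), and Adgrf5, an adhesion receptor (r = 0.906). Ifnar2 was most like ENSRNOG00000069185, which carries no name, followed by Eif4g2 and Capzb, with r between 0.892 and 0.925. Anxa3, Wasf2 and Kpna4 came closest to Ifngr1, with r between 0.819 and 0.860. For Ifngr2 the nearest were Il17ra, the interleukin-17 receptor chain, Ch25h, an interferon-induced cholesterol hydroxylase, and Tsn, with r between 0.779 and 0.828. Partner chains were less alike than that, at 0.686 for Ifnar1 with Ifnar2 and 0.757 for Ifngr1 with Ifngr2.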

How the data were processed

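Single-nucleus libraries of 3 treatments were analysed from the deposited matrices of raw counts (UMIs per gene and barcode). Counts were made with Cell Ranger 7.0.0 on mRatBN7.2, per the submitters' processing notes, and every deposited barcode was used. The 5 members and all lists were chosen with earlier results of these data known. A non-neuronal class needed at least 3 UMIs from at least 2 genes of its list, more than of any other such list and more than of the excitatory and inhibitory lists together. Other nuclei with at least 3 pan-neuronal UMIs from at least 2 genes were neurons, split by further marker lists or left unresolved. Class names thus mean marker-gated nuclei. Of 144 markers 8 were not found by name, and of 41 pathway genes 4. Counts were summed per class and library and divided by the class total (CPM). Levels carry exact Poisson intervals and ratios exact conditional Clopper-Pearson intervals, both 95%. A bound uses a floor of 3 counts. Comparisons were LPS over Saline, poly(I:C) over Saline and LPS over poly(I:C). With 1 library per treatment no test was run. The share of all genes past 2-fold, among genes with at least 20 UMIs over both libraries, is the background for the members. All 5 members, the 3 genes most like each, and pathway genes past 2-fold or at the ends of a list's range were named. The scripts were tested on simulated data. Alternatives changed the gate, barcode filter, scaling, depth, free RNA and doublet treatment. The versions were scipy 1.17.1, numpy 2.4.6, pandas 2.3.3 and matplotlib 3.10.9, under Python 3.11.15. Promoters came from RefSeq GRCr8. That build differs from the files' build, so no coordinates of the files were used.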

Additional observations from a re-analysis of the deposited data

Results flagged for a closer look

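The Ifngr1 ratio of LPS over Saline lay on opposite sides of 1 in astrocytes and in neurons, with intervals that excluded 1 on each side. It was 6.84 in astrocytes, from 17 UMIs in the LPS library and 1 UMI in the Saline library. That total is under the 20 UMIs asked of genes in the background, and a looser gate gave 2.30 (0.751 to 9.40), whose interval included 1. It was 0.754 in excitatory neurons, 0.616 in inhibitory neurons and 0.701 in unresolved neurons. The difference between these classes was not tested, since each treatment has 1 library.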

How the results depend on the processing

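No paired analysis was possible because each treatment has 1 library. Thinned to 1000 UMIs per nucleus, Ifnar1 over all barcodes was at 0.885 of Saline after LPS, and endothelial Ifnar1 at 0.730 after LPS and 0.613 after poly(I:C). With class levels weighted by Saline shares, the all-barcode Ifnar1 ratio after LPS was 0.855. In endothelial nuclei without a mural marker UMI, endothelial Ifnar1 was at 0.278 after LPS and 0.268 after poly(I:C), and Ifngr2 in LPS over poly(I:C) at 0.691. With a gate lacking Ptprb, Tek and Eng, Ifnar1 after LPS was at 0.566. These last 2 alternatives, and totals without the 1% of genes with most UMIs, were added after seeing the data. Without nuclei of a second gate or with most UMIs, endothelial Ifngr2 was at 1.73 for LPS over Saline and 0.661 for LPS over poly(I:C). The cause of these shifts was not tested. Endothelial Ifnar1 stayed below Saline in all 11 alternatives for each treatment, and neuronal Ifngr1 in all 8. Over all barcodes, LPS over Saline had 406 genes at least 2-fold higher and 282 lower, against 922 and 815 with a fold of 1.5, and 233 and 135 with at least 50 UMIs. For poly(I:C) over Saline 356 genes were higher and 462 lower, against 652 and 1372 with a fold of 1.5, and 227 lower with at least 50 UMIs. For LPS over poly(I:C) 410 were higher and 228 lower, against 1161 and 527, and 189 and 138. Among the other values, thinning moved 17 and left 104 within their intervals, and leaving out nuclei with a Syt1 UMI moved 8 and left 51. In 25 cases an alternative left only a bound. Low counts limit the rest, as in the interval of 2.09 to 25.8 for endothelial Ifngr2 after LPS.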
